A study of Mus musculus with 6 samples.

Results

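The small heat shock proteins are chaperones that hold unfolding proteins in a soluble state without using ATP, and many of them form large oligomers built around a shared alpha-crystallin domain. Striated muscle is among their richest sources, where members of the family bind desmin, filamin, actin and titin and protect the contractile filaments under strain. Bag3 is their best known partner, a co-chaperone that joins Hspb8 to the Hsp70 machine and hands damaged filament proteins to autophagy. Of the genes described here, 7 encode members of the family (Hspb1, Hspb2, Hspb3, Hspb6, Hspb7, Hspb8 and Cryab) and the remaining member is Bag3. They were picked out by gene name, with earlier results of these data known, and all 8 were present among the 35976 genes of the count tables.

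RNA-seq had been made from satellite cells (SCs), the stem cells of skeletal muscle, of mice 5 to 7 weeks old by the sample labels, all of which had received tamoxifen (20 mg/ml). NF-YAcKO mice carried floxed NF-YA alleles and Pax7-CreERT2, a Cre recombinase made in Pax7-expressing cells and switched on by tamoxifen, whereas NF-YAfl/fl mice carried the floxed alleles without Cre. NF-YA lets the trimeric factor NF-Y bind DNA at the CCAAT box, and the comparison asks how the transcripts of SCs differ when it is deleted. The study's methods describe enrichment of SCs from hindlimb muscle by removal of CD31, CD45, CD11b and Sca1 positive cells, followed by growth medium, and 3 libraries were made for each genotype. The Cre acts in cells that express Pax7 when tamoxifen is given, and cells that descend from them keep the deletion even after Pax7 is lost. Cells of other origin in a culture keep the floxed gene. The paper reports loss of NF-YA in most SCs of these mice but not in all.

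Total expected counts were between 26936230 and 41118984 per library. An Nfya entry for the deleted allele took 22.3% to 34.2% of the Nfya counts in NF-YAcKO and 0 in every NF-YAfl/fl library. The genotypes also differed in sex-linked genes, since Xist averaged 843 CPM in NF-YAcKO and 0.389 CPM in NF-YAfl/fl, and Ddx3y was at 3 counts or fewer in each NF-YAcKO library and averaged 84.9 CPM in NF-YAfl/fl. This is the pattern of female cells in NF-YAcKO and of male cells in NF-YAfl/fl, although the methods describe male mice. For every difference given below, genotype and sex cannot be told apart. NF-YAfl/fl libraries varied more among themselves than NF-YAcKO libraries, the biological coefficient of variation being 0.31 in the former and 0.105 in the latter. Satellite cell markers were present in both genotypes, with Pax7 at 145 to 201 CPM in NF-YAcKO and 73.5 to 105 CPM in NF-YAfl/fl. Pax7 RNA was thus higher in NF-YAcKO (log2 fold change 0.94, edgeR FDR = 0.00624), though not called by the thresholds given below. By staining and protein, which are other measures than RNA, the paper reports less Pax7 in NF-YAcKO cultures. The markers did not move alike. Of 7 satellite cell and myoblast markers tested, 3 had a log2 fold change above 0 and 4 below, with a median of -0.08.

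Levels are given as CPM, counts scaled to library size after TMM normalization, for a gene followed across libraries, and as TPM, which is scaled to transcript length, where genes are compared with each other. The edgeR quasi-likelihood test was run on all 17348 genes that passed a filter on low counts, and genes were called where the FDR was under 0.01 and the log2 fold change beyond 1 in either direction. All 8 members passed the filter. In NF-YAcKO 4 of them were called lower (Hspb2, Hspb3, Hspb7 and Hspb8), beside 7.67% of all tested genes, and 0 were called higher, beside 4.65%. The log2 fold change of all 8 was below 0, so that 0 were higher at an unadjusted p under 0.05 as well (beside 24.6% of tested genes), and DESeq2 and limma also called 0 higher. Over the members the log2 fold change had a median of -1.65, and over all tested genes one of -0.02. For all 7 small heat shock proteins every NF-YAcKO library lay below every NF-YAfl/fl library, an arrangement seen for 26.2% of tested genes, whereas Bag3 overlapped.

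**Figure D1:**
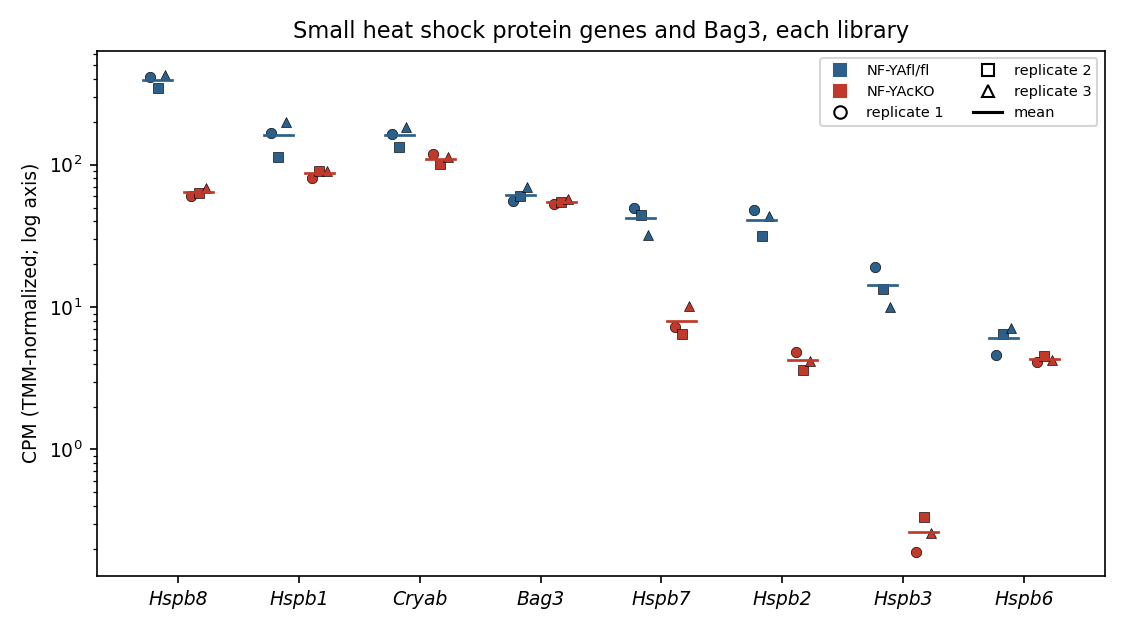
CPM (log axis) of the 7 small heat shock protein genes and Bag3 in each library, with symbols for replicates and a line at the mean of each genotype. The NF-YAcKO values of Hspb3 sit between 0.191 and 0.338 CPM, under NF-YAfl/fl values of 10 to 19.2, whereas those of Bag3 overlap between the genotypes.

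Hspb2 and Hspb3 are among the members of the family found mainly in muscle, and their proteins assemble with each other. Hspb3 lies on chromosome 13 of GRCm38 (113662896 to 113663676, minus strand). Its level was 0.191, 0.338 and 0.259 CPM in NF-YAcKO replicates 1 to 3 and 19.2, 13.4 and 10 CPM in NF-YAfl/fl replicates 1 to 3. The NF-YAcKO values rest on 6, 14 and 11 reads, against 501, 449 and 295 reads in the NF-YAfl/fl libraries. Hspb3 therefore remained low but above the level of 3 reads in each NF-YAcKO library. It fell by 5.71 on the log2 scale (SE 0.36, 95% interval -6.56 to -4.87, edgeR FDR = 0.000147), or 52.5-fold. No other member changed by as much.

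Hspb2 lies on chromosome 9 (50751078 to 50752354, minus strand). It measured 4.85, 3.64 and 4.21 CPM in NF-YAcKO and 48.1, 31.5 and 43.4 CPM in NF-YAfl/fl. The lowest NF-YAfl/fl library, replicate 2, was still far above the highest NF-YAcKO library. Hspb2 fell by 3.28 on the log2 scale (SE 0.21, 95% interval -3.76 to -2.79, edgeR FDR = 0.000147), or 9.7-fold.

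The Hspb2 gene carries 2 transcript forms in the deposited tables, of 840 and 558 nt, and they did not move alike. The longer form contains an in-frame stretch of 282 coding bases (94 of its 182 codons) that the shorter form of 88 codons lacks. The stretch is printed here because it is what tells the forms apart, and because its last part is also exon of Cryab on the opposite strand. It runs along the minus strand of chromosome 9, with the bases that are also Cryab exon in capitals, followed by the 30 bases across the junction that is made in the shorter form, where the capitals mark the sequence after the junction.
Hspb2 longer form, chr9:50751452-50751733: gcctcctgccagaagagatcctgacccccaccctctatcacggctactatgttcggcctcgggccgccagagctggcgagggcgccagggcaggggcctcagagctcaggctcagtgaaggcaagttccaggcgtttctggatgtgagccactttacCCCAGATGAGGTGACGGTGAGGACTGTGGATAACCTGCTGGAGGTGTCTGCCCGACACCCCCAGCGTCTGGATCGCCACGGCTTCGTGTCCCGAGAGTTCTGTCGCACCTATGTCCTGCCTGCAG
Hspb2 shorter form, junction: agcgcttcggagaagATGTGGACCCCTGGC

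The longer form was at 2.76, 2.26 and 2.46 TPM in NF-YAcKO and at 72.46, 58.85 and 49.89 TPM in NF-YAfl/fl, a ratio of the means of 24.2. The shorter form was at 9.52, 5.26 and 7.60 TPM in NF-YAcKO and at 14.76, 10.16 and 16.55 TPM in NF-YAfl/fl, a ratio of the means of 1.85. In TPM both forms were lower in every NF-YAcKO library than in any NF-YAfl/fl library, but the longer form had the wider gap. The expected counts of the shorter form, not scaled to library size, overlapped. They were 86.82 to 115.18 in NF-YAcKO and 95.77 to 207.93 in NF-YAfl/fl. As a share of the gene's TPM the longer form went from 81.1% ± 5.36 (SD, n = 3) in NF-YAfl/fl to 25.7% ± 3.91 in NF-YAcKO. RSEM estimates how reads divide between forms and also between Hspb2 and Cryab. Cryab exons overlap 127 bases that both forms hold and 125 bases of the longer form only. In NF-YAcKO Cryab had 3702.32 to 4803.52 expected counts, so that a small part of its reads, if assigned to Hspb2, could change these shares. Whether this happened was not tested, and the values are given as a description with no test.

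Cryab encodes alphaB-crystallin, a chaperone of desmin and other filaments. Its gene (chromosome 9, 50751325 to 50756636, plus strand) is the neighbour of Hspb2, and exons of the genes share 252 bases on opposite strands (50751325 to 50751576). The expected counts of Hspb2 and Cryab added up to a whole number in all 6 libraries (within 0.01), for example 3854 in NF-YAcKO replicate 1 and 5580 in NF-YAfl/fl replicate 1, although the count of Hspb2 alone was whole in none. Reads of the shared bases were thus divided between the genes by estimate, and the strand setting of the counting is not given in the sources used here.

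Cryab was at 118, 100.3 and 113 CPM in NF-YAcKO and at 165, 133 and 184 CPM in NF-YAfl/fl. The genotypes did not overlap, but the gap between the nearest libraries was narrow. The log2 fold change was -0.54 (SE 0.14, 95% interval -0.87 to -0.21, edgeR FDR = 0.0214), which passed neither threshold. Among its transcripts, the form of 874 nt had 101.31, 61.5 and 82.56 TPM in NF-YAcKO and 177.67, 183.22 and 198.61 TPM in NF-YAfl/fl. Those of 885 and 975 nt overlapped between the genotypes, with means of 37.6 and 39.2 TPM in NF-YAcKO and 27.2 and 33.0 TPM in NF-YAfl/fl.

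**Figure D2:**
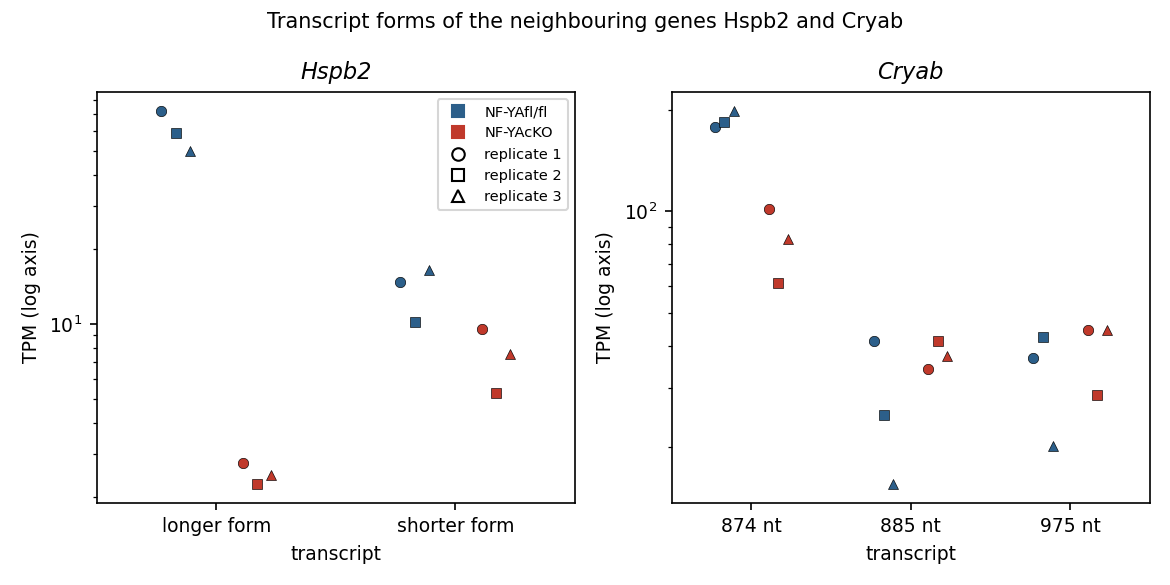
TPM (log axis) of the transcript forms of Hspb2 and Cryab that held at least 10% of the gene in some library, with a point for each library. The longer form of Hspb2 sits at 2.26 to 2.76 TPM in NF-YAcKO and 49.89 to 72.46 TPM in NF-YAfl/fl, and the 885 and 975 nt forms of Cryab overlap between genotypes.

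Within a library, the TPM of Hspb2 relative to that of Cryab was 0.0669, 0.0565 and 0.06 in NF-YAcKO and 0.338, 0.273 and 0.281 in NF-YAfl/fl. The ratio was lower in each NF-YAcKO library than in any NF-YAfl/fl library. The difference in the log2 ratio was -2.28 (exact permutation test, two-sided, p = 0.1, and 0.1 after adjustment over 3 ratios and shares tested). A p of 0.1 is the smallest that 3 libraries against 3 allow.

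Hspb8 works with Bag3 in the disposal of damaged filamins and other clients. Its gene is on chromosome 5 (116408491 to 116422864, minus strand). Hspb8 measured 60.6, 62.8 and 69.0 CPM in NF-YAcKO and 416, 344 and 429 CPM in NF-YAfl/fl. These values form tight groups that lie far apart, and the log2 fold change had the smallest SE of the called members. Hspb8 fell by 2.63 on the log2 scale (SE 0.12, 95% interval -2.92 to -2.34, edgeR FDR = 5.72e-05), or 6.18-fold.

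Bag3 (chromosome 7, 128523616 to 128546981, plus strand) was at 52.9, 54.9 and 57.1 CPM in NF-YAcKO and at 55.5, 60.1 and 69.2 CPM in NF-YAfl/fl. The highest NF-YAcKO library exceeded the lowest NF-YAfl/fl library. Its log2 fold change was -0.17 (SE 0.11, 95% interval -0.42 to 0.09, edgeR FDR = 0.258). The annotated gene overlaps 2610306O10Rik on the same strand. Bag3 had a whole expected count in every library, so that no division of its reads with that gene was seen.

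The level of Bag3 relative to Hspb8, as a ratio of TPM within a library, was 0.591, 0.593 and 0.562 in NF-YAcKO and 0.0904, 0.118 and 0.11 in NF-YAfl/fl. Bag3 transcripts were thus fewer than Hspb8 transcripts in every library, by a smaller margin in NF-YAcKO. The log2 ratio was 2.46 higher in NF-YAcKO (exact permutation test, two-sided, p = 0.1, adjusted 0.1).

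Hspb7, a small heat shock protein of heart and skeletal muscle that binds filamin C, is on chromosome 4 (141420779 to 141425311, plus strand). It was at 7.27, 6.47 and 10.1 CPM in NF-YAcKO and at 50, 44.3 and 32.3 CPM in NF-YAfl/fl. NF-YAcKO replicate 3 was the highest of its group and NF-YAfl/fl replicate 3 the lowest of its own, still without overlap. Hspb7 fell by 2.41 on the log2 scale (SE 0.23, 95% interval -2.96 to -1.86, edgeR FDR = 0.000694), or 5.32-fold.

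Hspb1 and Hspb6 are members found in many tissues, Hspb1 being the heat-inducible chaperone that binds actin filaments and Hspb6 a partner of 14-3-3 proteins in muscle. Hspb1 (chromosome 5, 135887919 to 135889563, plus strand) was at 80.4, 90.4 and 90.1 CPM in NF-YAcKO and at 168.0, 113.0 and 200.3 CPM in NF-YAfl/fl. The NF-YAfl/fl libraries were widely spread, with replicate 2 nearest to NF-YAcKO. The log2 fold change of Hspb1 was -0.88 (SE 0.20, 95% interval -1.36 to -0.41, edgeR FDR = 0.014), which passed neither threshold, and without NF-YAfl/fl replicate 2 it was -1.09 (FDR = 0.00157) and the gene was called lower.

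Hspb6 was the least abundant of the family per length in NF-YAfl/fl. Its gene (chromosome 7, 30552178 to 30555443, plus strand) overlaps Proser3 and Lin37 on the opposite strand and Gm38670 on the same strand. Hspb6 had a whole expected count in every library, so that no division of its reads with these genes was seen. It was at 4.11, 4.51 and 4.28 CPM in NF-YAcKO and at 4.63, 6.51 and 7.12 CPM in NF-YAfl/fl. The nearest libraries of the genotypes almost met. The log2 fold change was -0.50 (SE 0.21, 95% interval -0.99 to -0.02, edgeR FDR = 0.0948).

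Set against each other per length, the members changed order between genotypes. In NF-YAfl/fl Hspb8 had the highest mean TPM (270.3 ± 24.7, SD, n = 3), followed by Cryab (249 ± 11.0) and Hspb1 (241 ± 24.6), whose ranges over libraries overlapped. Hspb2 came next (74.2 ± 11.3), above Bag3 (28.7 ± 4.51), Hspb3 (26.8 ± 10.5), Hspb7 (18.8 ± 6.31) and Hspb6 (5.97 ± 1.63), with overlapping ranges for Bag3 and Hspb3 and for Hspb3 and Hspb7. In NF-YAcKO Cryab (161 ± 25.8) and Hspb1 (126 ± 7.49) led, with overlapping ranges, and Hspb8 stood below them at 41.5 ± 4.54 TPM. There followed Bag3 (24.1 ± 2.05), Hspb2 (9.95 ± 2.38), Hspb6 (3.96 ± 0.153) and Hspb7 (3.27 ± 0.924), the last 2 with overlapping ranges, and Hspb3 was at 0.453 ± 0.0902 TPM.

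The summed TPM of the 7 small heat shock protein genes was 370.2, 304 and 367 in NF-YAcKO and 947, 881 and 829 in NF-YAfl/fl. Cryab held 46.4% ± 2.94 (SD, n = 3) of the sum in NF-YAcKO and 28.1% ± 0.809 in NF-YAfl/fl, while Hspb8 held 12% ± 0.626 and 30.5% ± 1.72. The share of Hspb1 was 33.8%, 39.4% and 36.6% in NF-YAcKO and 27.2%, 24.1% and 30.4% in NF-YAfl/fl, 9.35 percentage points higher on average in NF-YAcKO (exact permutation test, two-sided, p = 0.1, adjusted 0.1). Hspb1 and Cryab together held 82.3% to 83.3% of the sum in NF-YAcKO and 52.8% to 58.9% in NF-YAfl/fl, more than the rest of the family in every library.

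**Figure D3:**
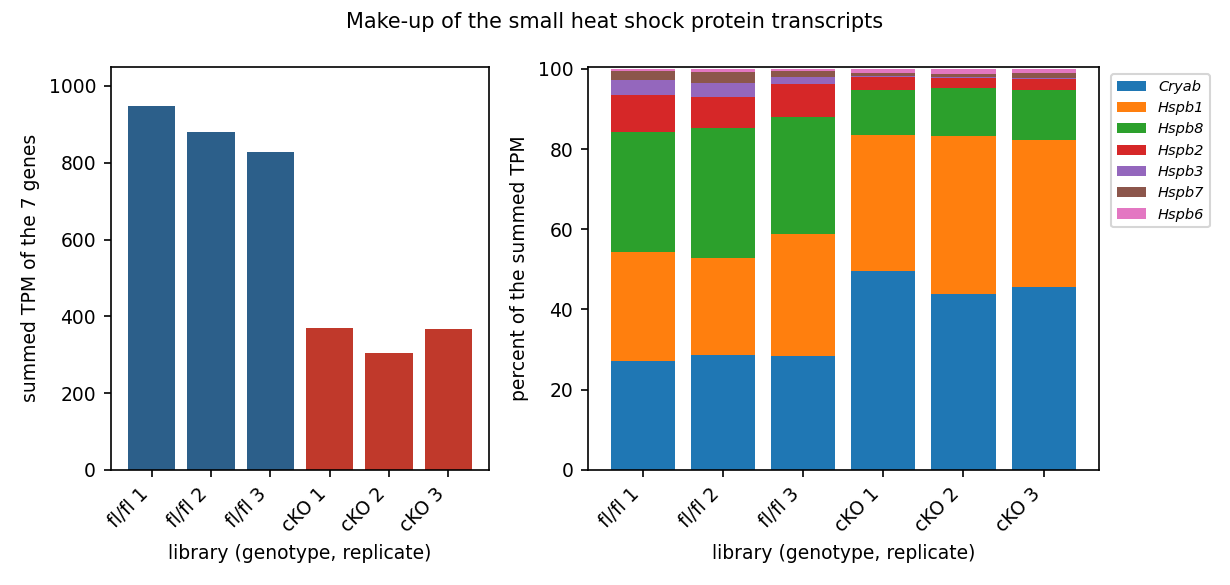
Summed TPM of the 7 small heat shock protein genes (left) and the percent of that sum held by each gene (right) in each library. The sum lies between 304 and 370.2 TPM in NF-YAcKO and between 829 and 947 TPM in NF-YAfl/fl, and the share of Hspb8 averages 12% and 30.5%.

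The other genes of the family and of its pathway were taken from lists, described here by their counts. Over these lists 35 genes were tested. Of them 4 were called lower, beside 7.67% of all tested genes, and 2 higher, beside 4.65%. Of the other small heat shock protein genes only Hspb11, also known as an intraflagellar transport protein, was tested (log2 fold change -0.35, SE 0.13, edgeR FDR = 0.0643), since Cryaa, Hspb9 and Odf1 did not pass the filter. Of the 5 other BAG co-chaperones 0 were called in either direction by edgeR, DESeq2 or limma, and the median was -0.09. Unadjusted p was under 0.05 for 1 gene, on the higher side, beside 24.6% of all tested genes. That gene was Bag4, at 33.2 to 35.3 CPM in NF-YAcKO and 20.0 to 20.6 CPM in NF-YAfl/fl, whose log2 fold change of 0.75 (SE 0.09, FDR = 0.00151) lay under the fold threshold.

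Among 7 partners of Bag3 in chaperone-assisted selective autophagy, 2 were called lower and 0 higher, with a median of 0.27. Unadjusted p was under 0.05 for 2 genes in each direction, beside 24.6% of all tested genes on the higher and 24.1% on the lower side. DESeq2 and limma called the same numbers as edgeR. Those called were Synpo2, which links Bag3 to the autophagosome membrane, and Flnc, the muscle filamin that is a client of the complex. Synpo2 was at 7.14 to 9.78 CPM in NF-YAcKO and 25.7 to 29.4 CPM in NF-YAfl/fl (log2 fold change -1.64, SE 0.16, edgeR FDR = 0.000634). Flnc was at 419 to 478 CPM in NF-YAcKO and 1419 to 3009 CPM in NF-YAfl/fl (log2 fold change -2.27, SE 0.27, FDR = 0.00142), a call that was lost without NF-YAcKO replicate 2 (-2.25, FDR = 0.0117). Hspa8, the constitutive Hsp70 of the complex, was at 3474 to 3873 CPM in NF-YAcKO and 2642 to 2663 CPM in NF-YAfl/fl (log2 fold change 0.46, FDR = 0.0169, not called).

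Of 4 filament and sarcomere proteins that small heat shock proteins bind, 3 were called lower and 0 higher, with a median of -2.18. Desmin (Des), the muscle intermediate filament and client of Cryab, fell by 2.09 on the log2 scale (SE 0.14, edgeR FDR = 0.000218), from 1392 to 327 CPM on average. The giant sarcomere protein titin (Ttn) fell by 5.30 (SE 0.35, FDR = 0.000172), and Flnc is described above. Vimentin (Vim), the intermediate filament of undifferentiated cells, was at 2619 to 2938 CPM in NF-YAcKO and 1526 to 2558 CPM in NF-YAfl/fl (log2 fold change 0.50, SE 0.20, FDR = 0.0876). It was the 1 gene of the list with an unadjusted p under 0.05 on the higher side, beside 24.6% of all tested genes. DESeq2 and limma likewise called 0 of the 4 higher.

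Heat shock factors switch on Hspb1, Hspb8, Cryab and Bag3 along with other chaperone genes under proteotoxic stress. Of the 3 factors 0 were called in either direction by edgeR, DESeq2 or limma. Unadjusted p was under 0.05 for 2, both on the lower side, beside 24.1% of all tested genes. Hsf1, the main factor of the heat shock response, had a log2 fold change of 0.20 (SE 0.17, edgeR FDR = 0.392), and Hsf4 one of -0.69 (SE 0.26, FDR = 0.0788). Hsf2, which was picked out after its value was seen, had one of -0.54 (SE 0.11, FDR = 0.0088).

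Of 17 heat-inducible chaperones and co-chaperones 2 were called higher and 0 lower, with a median of 0.41, and 13 of 17 had a log2 fold change above 0. Unadjusted p was under 0.05 for 11 on the higher and 2 on the lower side, beside 24.6% and 24.1% of all tested genes, and DESeq2 and limma called 1 higher and 0 lower. Hspd1, the mitochondrial chaperonin, rose from 449.6 to 958 CPM on average (log2 fold change 1.09, SE 0.10, edgeR FDR = 0.000546). Fkbp4, a co-chaperone of Hsp90, was at 268 to 294 CPM in NF-YAcKO and 132 to 147 CPM in NF-YAfl/fl (log2 fold change 1.02, SE 0.09, FDR = 0.000565), close to the fold threshold, and was called in 6 of 16 alternative settings.

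At an FDR under 0.01 with no fold threshold, 6 of the 17 were higher, beside 10.3% of tested genes, and 0 lower, beside 9.97%. The further 4 were picked out after their values were seen. They were Hspe1 (log2 fold change 1.0), Hsp90aa1 (0.86), Cacybp (0.80) and Ahsa1 (0.63), all with groups that did not overlap. The lowest of the list was Hspa1b, an inducible Hsp70, at 15 to 16.8 CPM in NF-YAcKO and 14.3 to 43.2 CPM in NF-YAfl/fl (log2 fold change -1.01, SE 0.37, FDR = 0.0698). Without NF-YAfl/fl replicate 3, its log2 fold change was -1.37 (FDR = 0.000206) and it was called lower, as was Hspa1a (-1.06, FDR = 0.00317). Hspa1a was named after its value was seen. Hspa1a and Hspa1b are near-identical copies between which reads were divided by estimate.

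**Figure D4:**
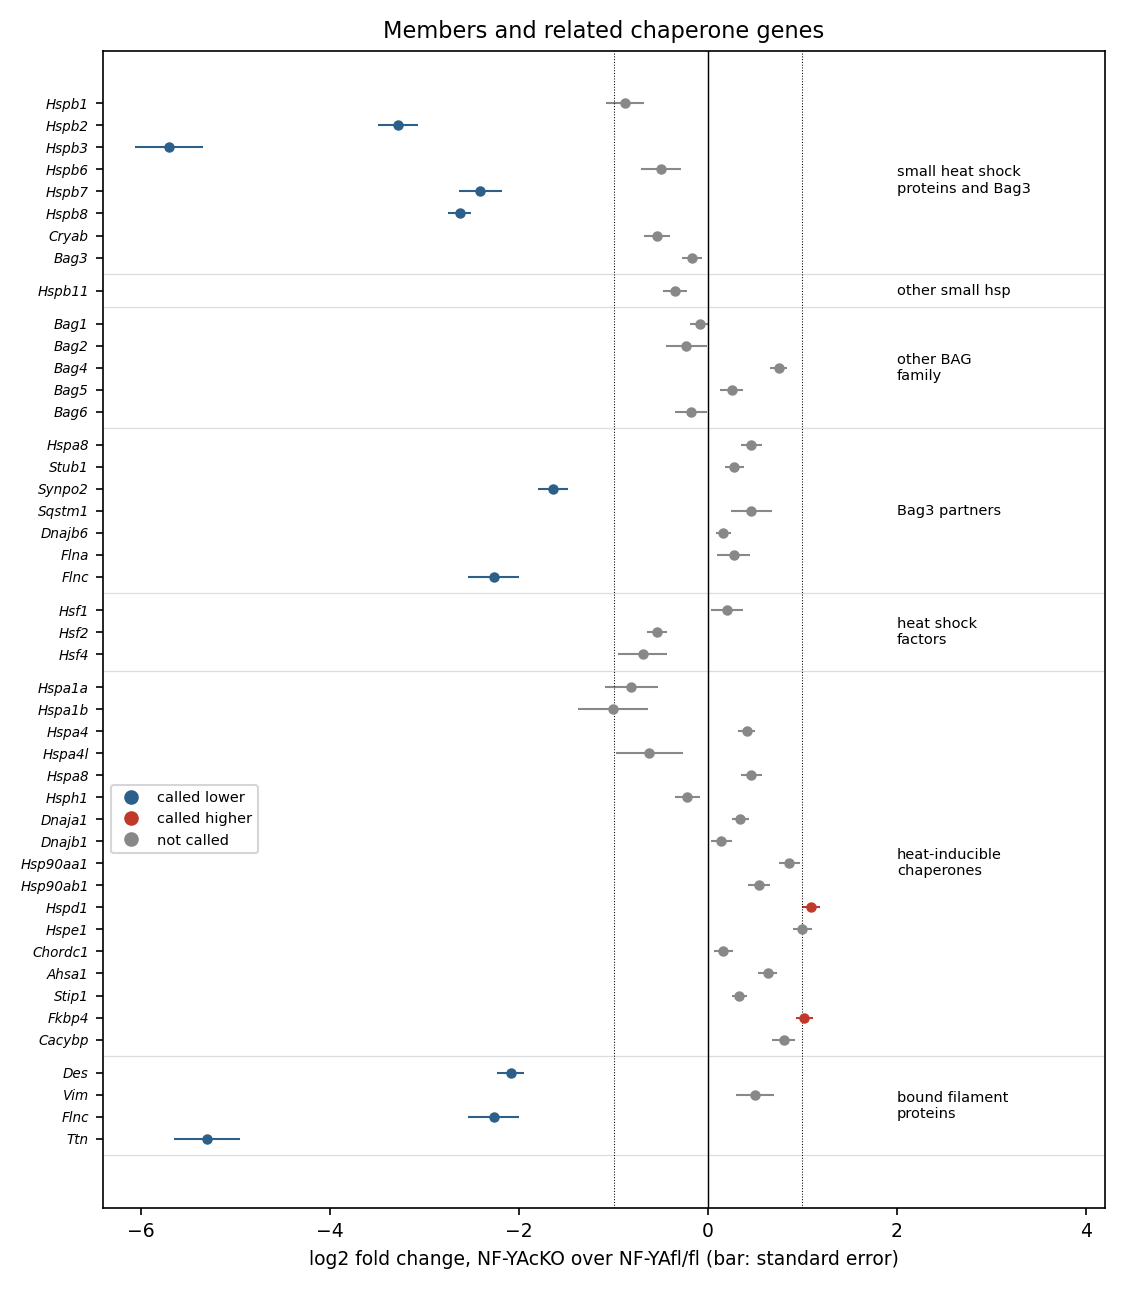
Log2 fold change of NF-YAcKO over NF-YAfl/fl with its standard error for the members and the genes of related lists, coloured by call, with dotted lines at the fold thresholds of -1 and 1. The 4 called members lie at -2.41 or lower, whereas the heat-inducible chaperones lie between -1.01 and 1.09.

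The members were also set beside markers of the cells that the cultures could hold, and the part of these markers in the results was not tested. In bulk RNA, fewer cells of a type and less RNA per cell cannot be told apart. The counts of called markers in each list below stand beside 7.67% of all tested genes called lower and 4.65% called higher. All 17 markers of terminal muscle differentiation were called lower (median -6.63), 16 without NF-YAcKO replicate 2, and their summed level was 138, 195 and 300.5 CPM in NF-YAcKO and 21015, 15464 and 18198 CPM in NF-YAfl/fl. None was at 0 in NF-YAcKO, where Myog, the myogenic factor of differentiating myoblasts, was at 10.7 to 31.4 CPM and Ckm, muscle creatine kinase, at 0.351 to 0.87 CPM.

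Of 7 satellite cell and myoblast markers tested, 2 were called lower, Cdh15 (-1.78) and Heyl (-2.97), with a median of -0.08, and the sums were 1156 to 1260 CPM in NF-YAcKO and 1021 to 2469 CPM in NF-YAfl/fl. Without NF-YAfl/fl replicate 3, 2 were called higher. Those called lower were 3 with DESeq2, filterByExpr, no filter, counts without rounding, both limma fits, an FDR under 0.05 and the replicate block. They were also 3 without NF-YAfl/fl replicate 2. Markers of smooth muscle and pericytes, cells that also make small heat shock proteins, summed to 1065 to 1422 CPM in NF-YAcKO and 1817 to 2207 CPM in NF-YAfl/fl, and 1 of 7 tested (Acta2, -1.20) was called lower. That count was 0 without NF-YAcKO replicate 2 or 3, and 3 without NF-YAfl/fl replicate 3 and with DESeq2.

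All 7 macrophage markers were called higher (median 4.35), but 5 without NF-YAcKO replicate 1, 2 without NF-YAcKO replicate 2 and 4 without NF-YAfl/fl replicate 1. They had sums of 134 to 266 CPM in NF-YAcKO and 4.55 to 11.4 CPM in NF-YAfl/fl, where Ptprc was at 0 in at least 1 library. Of 7 markers of fibro-adipogenic progenitors 1 was called higher (Lum, 2.98), with sums of 786 to 943 CPM and 718 to 1425 CPM. The count was 0 when NF-YAfl/fl replicate 1 or any single NF-YAcKO library was left out, with the replicate block, with glmTreat and with limma on log2(TPM + 0.1), and it was 2 with DESeq2 and without NF-YAfl/fl replicate 3. Among endothelial markers 1 of 5 was called higher (Kdr, 2.67), with sums of 13.1 to 18.0 CPM and 4.14 to 8.06 CPM.

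The genes nearest to each called member in their pattern over the 6 libraries were found as those with the smallest root mean square difference of log2(CPM + 1), each gene centred on its own mean, among the 9457 genes whose mean reached 10 CPM. For Hspb8 they were Dysf (difference 0.0671), which encodes dysferlin, a protein of muscle membrane repair, and Inadl (0.0894). For Hspb2 they were Kcnn3 (0.113), a calcium-activated potassium channel, and AI464131 (0.116), and for Hspb7 Slc4a3 (0.203), an anion exchanger, and Dtna (0.205), which encodes dystrobrevin alpha. Hspb3 averaged less than 10 CPM and was not compared. The likeness is a description over 6 libraries, which share the difference between the genotypes.

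Promoter sequences of RefSeq on GRCm38.p6, from 250 bases before to 50 bases after a transcript start, were matched for 6 of the 8 members by symbol, with 7 promoters because Hspb6 has 2 starts. Hspb2 and Cryab were not matched. GAANNTTC, the inverted repeat at the core of the heat shock element, was found in 5 of the 7 promoters with 6 matches, and 7.86% of all 32851 promoters hold it. The matches are printed as windows of 30 bases on the gene's own strand with the motif in capitals, because called members (Hspb8, Hspb3) and members not called (Hspb1, Hspb6, Bag3) both carried it.
Hspb8, chr5:116422844-116422873: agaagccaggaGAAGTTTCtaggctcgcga
Hspb3, chr13:113663882-113663911: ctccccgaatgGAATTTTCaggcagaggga
Hspb1, chr5:135887791-135887820: cttcaacaagaGAAGTTTCcagatgggggc
Hspb1, chr5:135887811-135887840: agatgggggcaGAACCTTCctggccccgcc
Hspb6, downstream start, chr7:30553170-30553199: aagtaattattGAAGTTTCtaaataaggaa
Bag3, chr7:128523603-128523632: ccaagttctctggatgggaccaGAAGTTTC

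The first base of the match lies at position 3 for Hspb8, 43 for Bag3, -117 and -97 for Hspb1, -120 for Hspb6 and -224 for Hspb3, counted from the transcript start. The spelling in the opposite order, TTCNNGAA, was in 0 of the 7 promoters and is in 8.52% of all. CCAAT, the box that NF-Y recognizes, was searched on both strands and was in 1 of the 7, the upstream start of Hspb6, with 4 matches, beside 37.4% of all promoters. The forward match farthest from that start and the reverse match next to it are shown to give their setting, with CCAAT or its reverse complement in capitals.
Hspb6, upstream start, chr7:30552344-30552373: gcctccaaagcgaCCAATgatagactagaa
Hspb6, upstream start, chr7:30552427-30552456: gagcgtgtgtttgATTGGagcgtgcagcag

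The E-box letters CANNTG were in 4 of the 7 promoters, those of Hspb7, Hspb8, Hspb1 and Hspb3, beside 72.3% of all, and the form CAGCTG, which CANNTG includes, was in 0 of the 7, beside 16.3%. None of the promoters of the called members Hspb3, Hspb7 and Hspb8 held CCAAT in this window. A match or its lack describes these letters in these windows and shows nothing about binding.

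**Figure D5:**
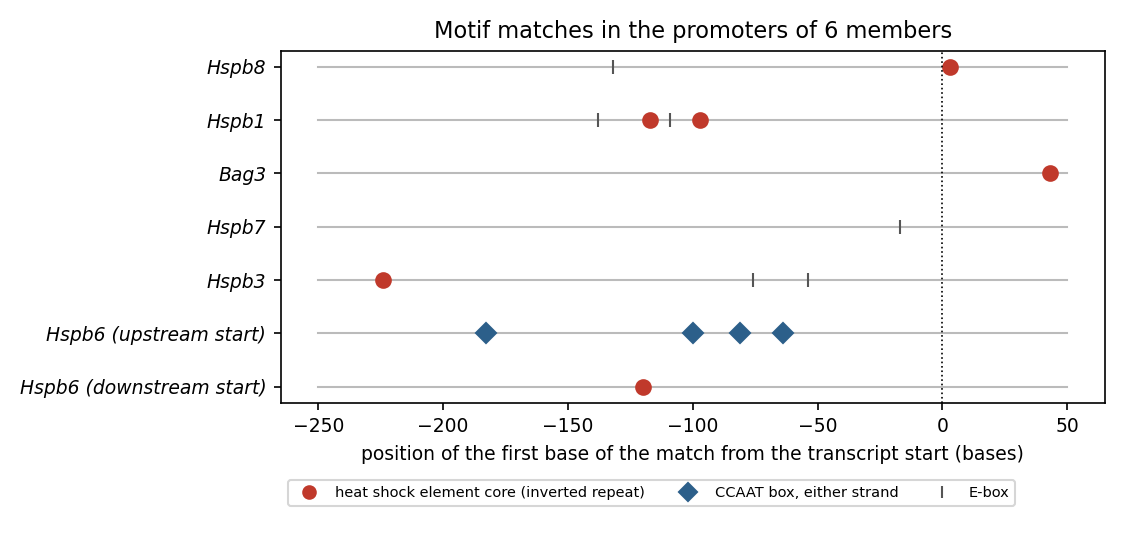
Positions of motif matches in the promoters of 6 members, in bases from the transcript start (dotted line), with circles for the heat shock element core, diamonds for CCAAT on either strand and ticks for the E-box. The core is at -117 and -97 in Hspb1 and at 3 in Hspb8, and the 4 CCAAT matches are all in the promoter of the upstream start of Hspb6.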

How the data were processed

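Per the labels and the study's methods, stranded total RNA libraries were made from SCs (3 NF-YAcKO and 3 NF-YAfl/fl), and Bowtie2 (mm10 transcriptome) and RSEM were used by the authors for alignment and quantification. Expected counts as deposited are neither normalized nor filtered and need not be whole, because RSEM divides shared reads by estimate. TPM as deposited is scaled to effective length and to a fixed sum. For transcripts the deposited tables also give the percent of the gene's TPM.

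Expected counts were rounded, and the 17348 of 35976 genes that exceeded 10 counts in 2 or more libraries entered edgeR 4.0.16 in R 4.3.3 (TMM, quasi-likelihood test, genotype only, Benjamini-Hochberg adjustment over all tested genes). Calls needed a log2 fold change beyond 1 in either direction with an FDR under 0.01. SE is the log2 fold change divided by the square root of F, and 95% intervals are not adjusted. Ratios and shares of TPM per library were compared with exact permutation tests. In simulated counts of this comparison 16990 genes were tested. Of genes changed by 2 on the log2 scale 73 of 88 were called with the right sign, and of those changed by 3, 107 of 112. There was a single false call (1 of 16790 unchanged genes). Changed genes were drawn only from the more abundant ones. Both genotypes were given the same spread, although the biological coefficient of variation was 0.105 in NF-YAcKO and 0.31 in NF-YAfl/fl. These rates need not hold for the real libraries.

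Library totals put 3 counts at 0.07296 to 0.1114 CPM. That level covers counting error only, and the spread between 3 libraries limits most comparisons. The labels do not say that replicates are separate mice, so that p-values measure the spread between these libraries. Libraries of a genotype differed by more than sampling noise (smallest chi-square per degree of freedom 13.1).

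The members and lists were chosen with earlier results of these data known. Named genes were all members, called genes of the pathway lists or the highest and lowest of a list, and the 2 genes most like each called member. The exceptions are marked in the text, and some cell markers are named as examples of their list. The result of 1 marker list is not reported here. Mymk and Mymx were matched to the files as Tmem8c and Gm7325. Coordinates are from GENCODE vM21 (GRCm38), and promoters from RefSeq (GRCm38.p6). The alternatives comprised DESeq2 1.42.0, edgeR with DESeq2 size factors, filterByExpr, no filter, counts without rounding, limma 3.58.1 on log2(TPM + 1) and log2(TPM + 0.1), an FDR under 0.05, a replicate block, glmTreat at a log2 fold change of 1, and leaving out each library. Plots used matplotlib 3.10.9.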

Additional observations from a re-analysis of the deposited data

How the results depend on the processing

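Of 128 member fold changes over 16 alternatives, 127 kept their direction and call, 1 changed its call (Hspb1 without NF-YAfl/fl replicate 2) and 0 reversed. Hspb2, Hspb3, Hspb7 and Hspb8 were called lower in all 16, and their log2 fold changes ranged from -3.45 to -2.79, -5.97 to -4.18, -2.65 to -2.18 and -2.73 to -2.57. Leaving out each library gave 4 to 5 members called lower and 0 called higher. Among the related genes it gave 3 to 6 lower and 1 to 2 higher, with 3 lower without NF-YAcKO replicate 2 and 6 without NF-YAfl/fl replicate 3. The related genes called higher, 2 above, were 1 with DESeq2, DESeq2 size factors, filterByExpr, counts without rounding and both limma fits, and 1 without NF-YAcKO replicate 2 or NF-YAfl/fl replicate 2. With no filter they were 3, with Hspe1 (1.03) added. Without NF-YAfl/fl replicate 1 they were again 2, but Fkbp4 was lost and Hspe1 (1.05) gained. With glmTreat 2 were called lower and 0 higher. The difference in the log2 Hspb2 to Cryab ratio was -2.73 with CPM in place of TPM, and -2.35 to -2.18 when a library was left out. For the Bag3 to Hspb8 ratio leaving out a library gave 2.35 to 2.55, and for the Hspb1 share 7.79 to 10.90 percentage points. The cause of these changes was not tested.

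Over all genes, 1331 lower and 806 higher calls became 704 and 231 with limma on log2(TPM + 1), and 1067 and 361 on log2(TPM + 0.1). They were 2025 and 1163 at an FDR under 0.05, 510 and 97 with glmTreat, and 523 to 1684 and 177 to 890 when a library was left out. The lower share of calls, 62.3%, was 75.3% and 74.7% with limma and 84.0% with glmTreat. Same-numbered libraries share only a number, with correlations of their deviations of 0.267, -0.14 and 0.079, and 2 of the 3 NF-YAcKO libraries correlated best with their own number. With the replicate block, 947 genes were called lower and 625 higher, with 4 members lower and 0 higher.

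Hspb3 in NF-YAcKO rests on 6 to 14 reads, so that its fold change is the least precise. Transcript forms and the overlapping genes Hspb2 and Cryab are estimates of divided reads.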
